A study of Homo sapiens with 47 samples.

Results

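Targeting dCas9-VP16(10x) to 6 genomic regions that lie next to, but not at, estrogen receptor α-bound sites (ERBSs) was followed by chromatin immunoprecipitation and sequencing (ChIP-seq) of acetylated histone H3 lysine 27 (H3K27ac) and of RNA polymerase II (RNAPII). The 8 libraries described here are those of the 2 antibodies from cells given guide RNAs (gRNAs) to the adjacent regions and from control cells given gRNAs to the *IL1RN* promoter, with 2 libraries per antibody and gRNA pool, out of 47 samples in the series. The 6 adjacent regions, a pair named A and B at each of the genes *MMP17*, *CISH* and *FHL2*, are 6 of 23 regions, each 2000 bp wide, for which signal was tabulated, and the other 17 are 12 ERBSs and 5 promoters. H3K27ac signal was higher in both Adjacent libraries than in every other VP16 library at all 6 regions (26.1% of the 23). RNAPII signal was higher in both than in every other VP16 library at 3 of them, MMP17-A, CISH-A and FHL2-B (13% of the 23). When each library was divided by its median over the 16 regions that neither pool targets, MMP17-A lost this separation for both antibodies, leaving 5 regions and 2. In the main limma fit for VP16, 0% of the 23 regions passed adjustment for either antibody. The lowest limma adjusted p was 0.158 for H3K27ac and 0.332 for RNAPII. RNAPII peaks that both Adjacent lists held and neither *IL1RN* list held overlapped gRNA sites at 4 of the 6 regions, whereas a shared H3K27ac peak of this kind was present at CISH-B only. The RNAPII peak at MMP17-A was also in a list from cells with another fusion, dCas9-p300(core), and without adjacent gRNAs.

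All cells were from Ishikawa, a line established from an endometrial adenocarcinoma, and had spent at least 5 days in hormone-depleted medium when they were transfected. Each culture received a plasmid for an HA-tagged fusion of nuclease-dead Cas9 with 10 copies of the VP16 activation domain together with a pool of gRNA plasmids, 4 gRNAs per region, and both plasmids were selected for with drugs. The Adjacent pool carried the gRNAs of all 6 regions at once, so each region was activated beside the other 5 and not alone, and the fusion acted from transient transfection in a population of cells. One H3K27ac Adjacent library (replicate 1) also carried the *IL1RN* gRNAs, according to its label, and the control cells expressed the same fusion. Pools 1 to 3, which target ERBSs of these genes and of *HES2*, gave 6 further VP16 libraries per antibody and are used here only as additional samples in which the adjacent regions were not targeted. The labels do not say that replicates were separate cultures, so p-values measure only the spread between these samples, and in a bulk library a larger share of transfected cells cannot be told apart from more signal per cell.

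H3K27ac is a histone mark deposited by the acetyltransferases p300 and CBP and found at active promoters and enhancers. VP16 is a viral activation domain that has no acetyltransferase activity of its own and recruits Mediator, general transcription factors and coactivators, among them p300 and CBP, and RNAPII at a site away from promoters is often seen where enhancers are transcribed. ERBSs are places where the ligand-activated transcription factor estrogen receptor α binds, and in endometrial cells a subset of them acts as enhancers of genes such as those studied here. *MMP17* encodes a membrane-anchored matrix metalloproteinase, *CISH* a cytokine-induced SH2 protein that restrains JAK-STAT signaling, *FHL2* a LIM-domain coregulator, *HES2* a basic helix-loop-helix repressor, and *IL1RN* the interleukin-1 receptor antagonist.

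The adjacent regions lay on both sides of their genes (coordinates in hg19). MMP17-A (chr12:132278270-132280270) was centered 33668 bp upstream of the *MMP17* start, inside *SFSWAP*, which encodes a splicing regulator, and MMP17-B (chr12:132292539-132294539) was centered 19399 bp upstream in intergenic sequence. CISH-A (chr3:50646137-50648137) was centered 2068 bp downstream of the *CISH* start within the gene, and CISH-B (chr3:50630832-50632832) 17373 bp downstream, where its center falls in exon 11 of *HEMK1*, the gene of a methyltransferase for translation release factors. FHL2-A (chr2:106028432-106030432) was centered 13924 bp upstream of the start of the canonical *FHL2* transcript in the annotation, still within longer *FHL2* transcripts. FHL2-B (chr2:106005973-106007973) was centered 8535 bp downstream of that start in an intron of *FHL2*. The distance from each region to the nearest tabulated ERBS ranged from 3052 bp (FHL2-A to FHL2-2) to 13446 bp (FHL2-B to FHL2-1).

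The 4 gRNA sites of a region spanned 356 to 567 bp near the middle of the 2000 bp, and each of the 24 gRNAs matched the genome exactly at 1 place next to an NGG protospacer-adjacent motif (PAM). The sites that carry the RNAPII result are shown for CISH-A and CISH-B, as the genomic protospacer 5′ to 3′ on the strand given, with the PAM in capitals.
cish_A_33, chr3:50646799-50646821, minus strand: caagatcgtagagcctggtaGGG
cish_A_233, chr3:50646999-50647021, plus strand: gatactagggcttcctccttGGG
cish_A_399, chr3:50647165-50647187, minus strand: agccagtctggttctccttgAGG
cish_A_577, chr3:50647343-50647365, plus strand: cagcgccagtattgcttgtgAGG
cish_B_15, chr3:50631497-50631519, minus strand: ctcagccaagctattaaacaAGG
cish_B_255, chr3:50631737-50631759, minus strand: cctggcaatcagctcactgaAGG
cish_B_344, chr3:50631826-50631848, minus strand: gcctgcctgtatcctccaccAGG
cish_B_524, chr3:50632006-50632028, plus strand: gtagttgcaatggtgagctgAGG

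The stretches of FHL2-B and MMP17-B that hold 3 of the 4 gRNA sites of each region are shown because the FHL2-B stretch carried the largest RNAPII fold change and the MMP17-B stretch the H3K27ac peak found with both fusions. They are the plus strand of hg19, 5′ to 3′, with protospacers and their PAMs in capitals. The sites in the FHL2-B stretch are those of fhl2_B_201, fhl2_B_277 and fhl2_B_435, and those in the MMP17-B stretch are mmp17_B_405, mmp17_B_448 and mmp17_B_510.
FHL2-B, chr2:106006802-106007098: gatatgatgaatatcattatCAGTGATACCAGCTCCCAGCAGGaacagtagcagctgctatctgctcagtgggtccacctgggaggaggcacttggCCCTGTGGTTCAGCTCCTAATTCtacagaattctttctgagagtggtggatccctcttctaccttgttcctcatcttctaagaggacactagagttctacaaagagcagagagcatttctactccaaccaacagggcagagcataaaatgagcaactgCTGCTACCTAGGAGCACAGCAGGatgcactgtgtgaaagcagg
MMP17-B, chr12:132293561-132293728: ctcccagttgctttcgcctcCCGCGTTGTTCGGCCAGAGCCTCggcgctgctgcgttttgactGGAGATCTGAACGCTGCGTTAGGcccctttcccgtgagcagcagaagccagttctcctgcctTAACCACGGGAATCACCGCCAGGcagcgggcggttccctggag

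Binding of the fusion was present at all 6 regions. In ChIP-seq against the HA tag, MACS2 peaks overlapped 6 of 6 adjacent regions in both Adjacent libraries and 0 of 6 in the 1 *IL1RN* library. HA signal was 2.68 and 2.79 at MMP17-A, 5.55 and 8.31 at MMP17-B, 7.13 and 4.16 at CISH-A in Adjacent replicates 1 and 2. It was 8.98 and 2.60 at CISH-B, 5.81 and 6.54 at FHL2-A, and 1.92 and 1.43 at FHL2-B. The values of the *IL1RN* library at these regions lay between 0.178 and 0.533, below both Adjacent libraries everywhere, and the fold over it was lowest at MMP17-A (5.38) and highest at FHL2-A (20.3). FHL2-B thus had the lowest HA level of the 6 in each Adjacent library.

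The libraries differed in depth, and 1 of them stood apart. Over the 23 regions the H3K27ac libraries held 2278 to 6999 reads and the RNAPII libraries 2468 to 3156, and the peak lists held 16463 to 27208 and 33212 to 35592 peaks. Among the further VP16 libraries of Pools 1 to 3, H3K27ac Pool 3 replicate 1 was the shallowest. It held 348 reads, had 4 regions at 0 and gave 5322 peaks, and it counts below as 1 of the 8 other VP16 libraries. In all 8 lists, 8 of 8 epithelial marker genes (among them *KRT8*, *EPCAM*, *PAX8* and *SOX17*) had a peak at the promoter, whereas at most 1 of 9 marker genes of other cell types did, the macrophage gene *CD68*. H3K27ac *IL1RN* replicate 1 had the fewest reads and the fewest peaks, and 70.1% of its peaks lay at promoters (within 1000 bp of a transcript start) against 57.3% in *IL1RN* replicate 2 and 57.4% and 56.5% in the Adjacent libraries. Its signal was below that of *IL1RN* replicate 2 at 11 of 12 ERBSs (medians 0.0879 and 0.418) and 5 of 6 adjacent regions (0.0220 and 0.0820), and above it at 4 of 4 promoters of the target genes (1.20 and 0.475). It also showed no H3K27ac peak at the *IL1RN* promoter, which its gRNAs target. Results for H3K27ac are therefore given with and without this library. Its peak names carry the number 15977, as do those of Adjacent replicate 2, whereas the names of Adjacent replicate 1 and *IL1RN* replicate 2 carry none, so H3K27ac values are also given within these pairs. What the number stands for is not stated. The 4 VP16 RNAPII libraries compared share another one, 15968. Replicate 2 of each of Pools 1 to 3, among the 8 other VP16 libraries for RNAPII, carries none.

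H3K27ac signal, which the study scaled by total read depth and then by the average depth within shared peaks of the antibody, was low at the adjacent regions of control cells. At MMP17-A it was 0.215 and 0.391 in Adjacent replicates 1 and 2 and 0.0314 and 0.102 in the *IL1RN* libraries (43, 143, 5 and 25 reads), and at MMP17-B 0.0998 and 0.284 against 0.0377 and 0.0205 (20, 104, 6 and 5 reads). Replicate 2 was the higher Adjacent library at both *MMP17* regions, and the groups did not overlap at either. In the 6 libraries of Pools 1 to 3 the highest values there were 0.172 and 0.0530, and all lay below both Adjacent values. However, p300(core) libraries without adjacent gRNAs reached 0.573 at MMP17-A, above both Adjacent values, and 0.166 at MMP17-B, between them.

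At the *CISH* regions the order of the Adjacent replicates was the opposite. CISH-A read 0.324 and 0.156 against 0.0126 and 0.102 in the *IL1RN* libraries (65, 57, 2 and 25 reads), and CISH-B, which reached the highest H3K27ac level of the 6, 0.559 and 0.216 against 0.0251 and 0.0697 (112, 79, 4 and 17 reads). Pools 1 to 3 reached at most 0.108 and 0.0861, so that neither region showed overlap with another VP16 library, although p300(core) libraries without adjacent gRNAs reached 0.486 at CISH-A and 0.353 at CISH-B. At FHL2-A the values were 0.240 and 0.145 against 0.0126 and 0.0943 (48, 53, 2 and 23 reads), with 0.135 the highest pool value, and at FHL2-B 0.125 and 0.104 against 0.0188 and 0.0697 (25, 38, 3 and 17 reads), with 0.0938. FHL2-B had the lowest H3K27ac level with the fusion targeted to it. The distance between its lower Adjacent value and the highest other VP16 library was small in relation to the spread among the pools. At both *FHL2* regions p300(core) libraries without adjacent gRNAs exceeded both Adjacent values, reaching 0.378 at FHL2-A and 0.485 at FHL2-B.

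**Figure D1:**
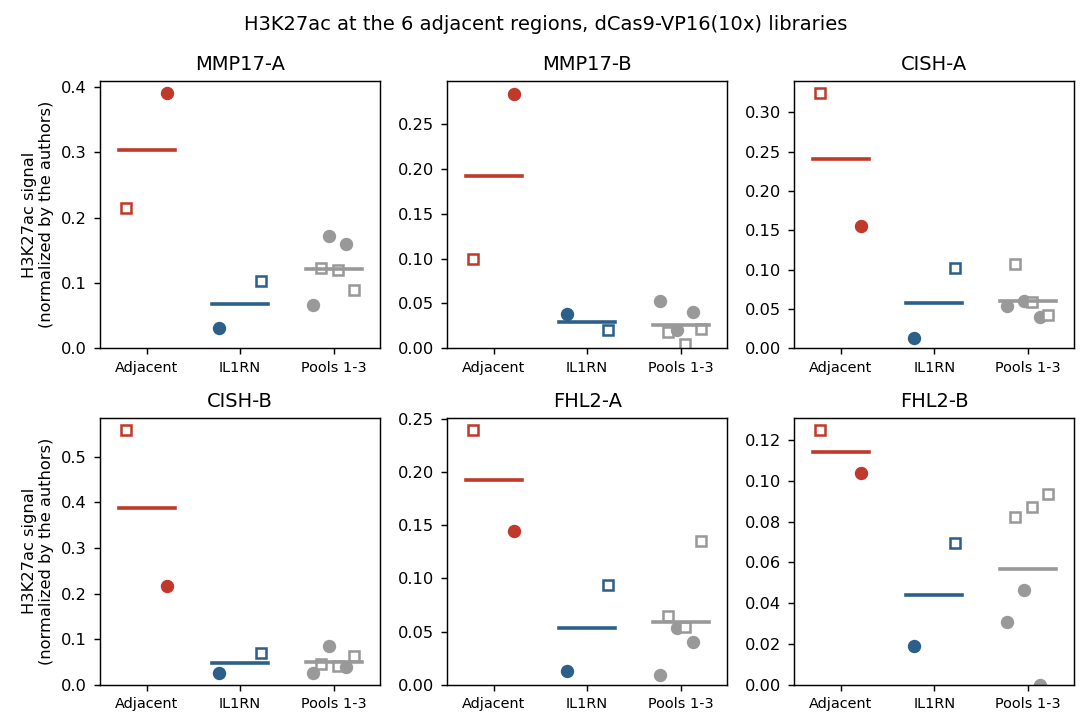
H3K27ac signal (depth- and peak-normalized, linear y axis from 0, scaled for each region) in each VP16(10x) library at the 6 adjacent regions, with Adjacent libraries in red, *IL1RN* libraries in blue and the 6 libraries of Pools 1 to 3 in grey. Filled circles are libraries whose peak names carry a number, open squares those without one, and horizontal lines are group means. Both red symbols lie above all others at every region, and the distance is shortest at FHL2-A and FHL2-B.

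As means ± SD (n = 2 in each group), H3K27ac was 0.388 ± 0.242 in Adjacent and 0.0474 ± 0.0315 in *IL1RN* libraries at CISH-B, and 0.114 ± 0.0147 and 0.0442 ± 0.0359 at FHL2-B, the regions with the highest and lowest ratio of means. No region passed the test across all 23. Limma with Benjamini-Hochberg adjustment called 0 of 6 adjacent regions and 0 of 17 others (0% of the 23 in either direction), with 3 of 6 and 0 of 17 at an unadjusted p under 0.05. The estimates on the log2(signal + 0.00415) scale were 2.26 ± 0.88 (SE) at MMP17-A, 2.43 ± 0.80 at MMP17-B and 2.92 ± 1.09 at CISH-B (limma adjusted p 0.158 for each). They were 2.44 ± 1.25 at CISH-A (0.318), 2.23 ± 1.23 at FHL2-A (0.34) and 1.52 ± 1.25 at FHL2-B (0.481), and the 95% intervals of these 3 regions, -0.22 to 5.10, -0.38 to 4.85 and -1.14 to 4.18, included 0. With 2 libraries against 2 an exact permutation test cannot go below p = 0.333. Against all 8 other VP16 libraries, the exact two-sided permutation test gave p = 0.0444, the smallest it can give, at 6 of 6 adjacent regions (26.1% of the 23 regions, all of them adjacent) and at 0 of 17 others, and the adjusted p over the 23 regions was 0.17. With the 16-region division the same exact permutation test gave p = 0.0444 at 5 of 6 and p = 0.0889 at MMP17-A. Dividing each library by its median over all regions its own pool did not target, which counts the adjacent regions in *IL1RN* but not in Adjacent libraries, gave fitted log2 changes of -0.74 at FHL2-B, -0.09 at MMP17-A and -0.02 at FHL2-A, and of 0.11 to 0.59 at the other 3. In the comparison with 8 libraries as deposited, CISH-B had the largest log2 difference, 2.81, and FHL2-B the smallest, 1.49.

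How large the fold was depended on which control library was used. Within the pair numbered 15977 the fold of Adjacent replicate 2 over *IL1RN* replicate 1 was 12.5 at MMP17-A, 7.55 at MMP17-B, 12.4 at CISH-A, 8.61 at CISH-B, 11.6 at FHL2-A and 5.52 at FHL2-B. Within the pair without a number it was 2.09, 4.87, 3.17, 8.02, 2.54 and 1.79 in the same order. The pairs differed least at CISH-B and MMP17-B and most at MMP17-A. The first pair also moved the ERBSs, with a median fold of 4.36 over 12 sites against 10.1 over the adjacent regions, and in the second pair these medians were 1.16 and 2.85. With *IL1RN* replicate 2 as the only control, so without the library that stood apart, the folds of the Adjacent mean were 2.96, 9.38, 2.34, 5.56, 2.04 and 1.64 in the order given, and the fitted log2 changes ranged from 0.68 to 2.81 (limma adjusted p 0.239 to 0.899). When the number in the peak names entered the fit as a block, a term absorbing differences between numbered and unnumbered libraries, limma called 8 of the 23 regions higher (34.8%), namely 5 of 6 adjacent regions (all but FHL2-B, adjusted p 0.00738 to 0.0209) and 3 of 17 others, the ERBSs MMP17-3, CISH-1 and CISH-2.

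H3K27ac peaks were called at 4 of the 6 regions, in 1 or both Adjacent lists. In Adjacent replicate 2 a peak overlapped MMP17-A (fold enrichment 12.8 and −log10 p 37.7 by MACS2), MMP17-B (21.5 and 62.3), CISH-B (6.96 and 18.2) and FHL2-A (8.51 and 24.6). In Adjacent replicate 1 the only one was at CISH-B (13.3 and 45.8). No *IL1RN* or Pool 1 to 3 list held a peak at any of the 6 regions, and CISH-A and FHL2-B had none in any list. The MMP17-B peak was 551 bp wide, contained 3 of the 4 gRNA sites and had its summit 190 bp from the center of the gRNA sites. At CISH-B the summits lay 311 and 254 bp to the higher-coordinate side of that center in the 2 replicates, and at FHL2-A 148 bp to the lower-coordinate side. MMP17-A held 2 H3K27ac peaks in that list, the stronger with its summit 975 bp from the center and covering no gRNA site, and another (fold enrichment 10.1) with its summit 54 bp to the lower-coordinate side.

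RNAPII signal, scaled in the same way, differed from H3K27ac in which regions moved most. At FHL2-B it was 0.331 and 0.406 in Adjacent replicates 1 and 2 and 0.0716 and 0.0647 in the *IL1RN* libraries (84, 112, 18 and 15 reads), and the pools reached 0.125. At CISH-A it was 0.406 and 0.479 against 0.127 and 0.194 (103, 132, 32 and 45 reads), with 0.282 the highest pool value. These were the regions with the widest separation of the groups, and FHL2-B had the largest fold, 5.41, followed by 2.75 at CISH-A. MMP17-A had the highest RNAPII level of the 6 without targeting and read 0.710 and 0.864 against 0.613 and 0.552 (180, 238, 154 and 128 reads), with up to 0.677 in the pools.

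The other 3 regions lay above both *IL1RN* libraries but not above all pool libraries. MMP17-B read 0.0867 and 0.0726 against 0.0398 and 0.0388 (22, 20, 10 and 9 reads), CISH-B 0.315 and 0.381 against 0.203 and 0.259 (80, 105, 51 and 60 reads) and FHL2-A 0.106 and 0.0871 against 0.0318 and 0.0475 (27, 24, 8 and 11 reads). The highest pool values there, 0.110, 0.324 and 0.167, each exceeded at least 1 Adjacent value. In groups of 2 the RNAPII replicates lay closer together than the H3K27ac replicates, and over the regions not targeted by either pool their reads agreed within sampling noise (p 0.108 for Adjacent and 0.848 for *IL1RN* by a chi-square test of the reads), although their peak lists differed. Counting each such pair as 1 library left the calls described next at 0.

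**Figure D2:**
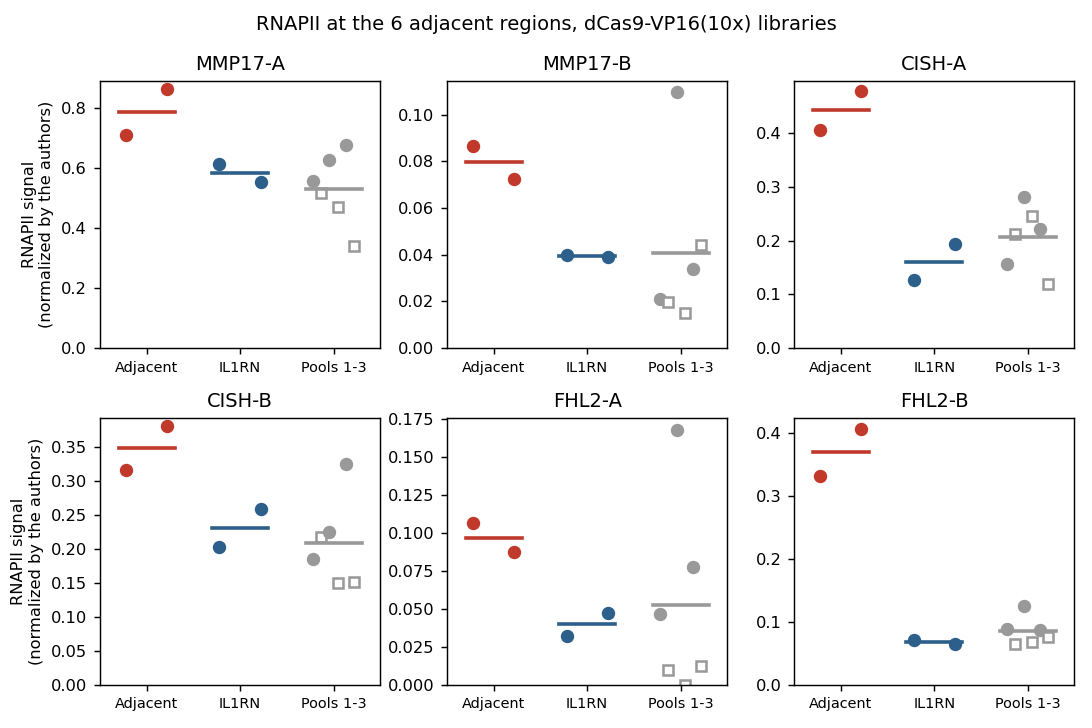
RNAPII signal (depth- and peak-normalized, linear y axis from 0, scaled for each region) in each VP16(10x) library at the 6 adjacent regions, with the colors and lines of the H3K27ac plot. The red Adjacent symbols lie above every other library at MMP17-A, CISH-A and FHL2-B, with FHL2-B the most separated, and overlap the range of the grey pool symbols at the other 3 regions.

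Limma called 0 of 6 adjacent regions and 0 of 17 others for RNAPII (0% of the 23), with 2 of 6 and 0 of 17 at an unadjusted p under 0.05, and these 2 were FHL2-B and CISH-A. Their log2 changes were 2.36 ± 0.91 (SE, 95% interval 0.43 to 4.30) and 1.46 ± 0.61 (0.17 to 2.76), each with a limma adjusted p of 0.332. The estimates for the other 4 were 1.23 ± 1.24 at FHL2-A, 0.95 ± 0.64 at MMP17-B, 0.59 ± 0.58 at CISH-B and 0.43 ± 0.44 at MMP17-A (limma adjusted p 0.978 for each). This fit takes its error from all 20 RNAPII libraries of both fusions. Fitted on the 4 compared libraries alone, limma called 5 of 6 adjacent regions (all but MMP17-A), which are 21.7% of the 23 regions, and 0 of 17 others in that direction, while the *IL1RN* promoter was lower. The error of that smaller fit comes only from the 2 replicate pairs, whose reads agreed within sampling noise and which the labels do not call separate cultures. Counting each pair as 1 library would leave it no error estimate and was done only in the fit over all 20 RNAPII libraries. Divided by their median over regions their own pool did not target, the libraries gave -0.21 at MMP17-A and -0.04 at CISH-B, and 0.32 to 1.68 at the other 4. The exact two-sided permutation test against all 8 other VP16 libraries gave p = 0.0444, the smallest possible, at MMP17-A, CISH-A and FHL2-B (13% of the 23 regions, all of them adjacent), with an adjusted p of 0.341, and with the 16-region division at CISH-A and FHL2-B only (MMP17-A, p = 0.0889).

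RNAPII peaks had summits among the gRNA sites at 4 of the 6 regions. FHL2-B had peaks with fold enrichment 9.27 and 8.44 in the 2 Adjacent lists, with summits 36 bp to the lower and 35 bp to the higher-coordinate side of the gRNA center, and the merged peak at chr2:106006779-106007175 (397 bp) contains the whole FHL2-B stretch printed above. CISH-B had peaks of 7.43 and 7.57 with summits 133 and 135 bp from the center, merged to chr3:50631796-50632000, and CISH-A peaks of 4.80 and 5.19 with summits 260 and 267 bp from it, merged to chr3:50647275-50647471 around cish_A_577. All 6 of these summits lay between the outermost gRNA sites. The strongest RNAPII peaks of MMP17-A were in both Adjacent lists (8.33 and 11.3) but also in both *IL1RN* lists (9.41 and 8.36), with summits 639 to 1031 bp from the gRNA center. A separate RNAPII peak at chr12:132279071-132279424, which covers mmp17_A_354, was in both Adjacent lists (6.71 and 7.34) and in neither *IL1RN* list, and its summits lay 143 and 176 bp to the lower-coordinate side of the center. A p300(core) Pool 1 library, without adjacent gRNAs, also held an RNAPII peak there (7.42), with its summit 160 bp to that side. MMP17-B and FHL2-A had no RNAPII peak in the 4 lists, and their highest RNAPII signal in the 4 libraries was 0.106.

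**Figure D3:**
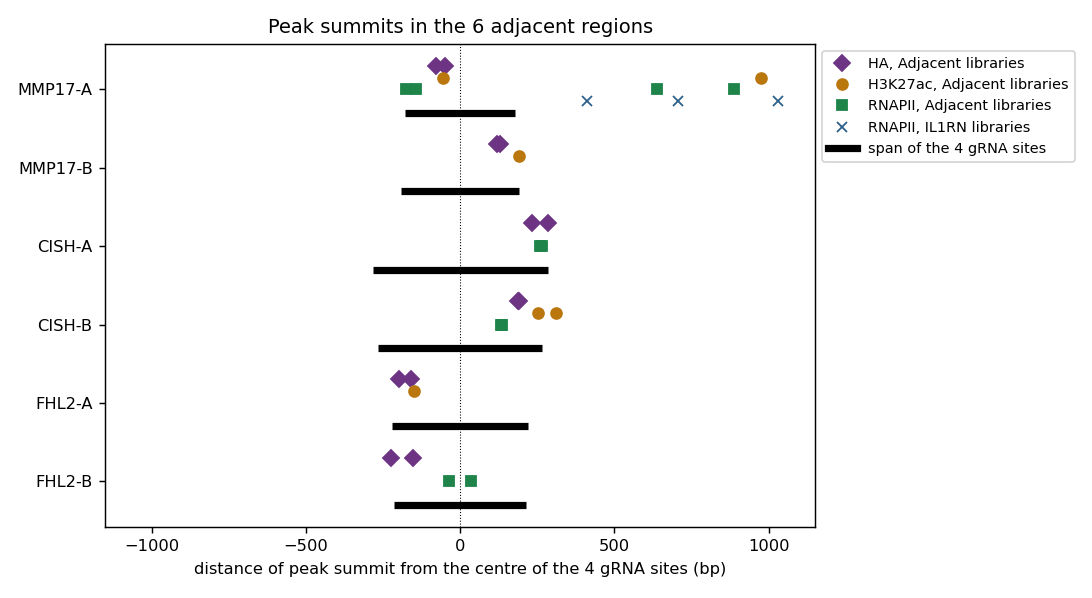
Distance in bp of each peak summit from the center of the 4 gRNA sites, by region, for peaks in VP16(10x) libraries: HA in purple diamonds, H3K27ac in orange circles and RNAPII in green squares for Adjacent libraries, and RNAPII of *IL1RN* libraries as blue crosses, with the span of the gRNA sites as a black bar. RNAPII summits at FHL2-B, CISH-A and CISH-B fall within the bar. At MMP17-A 1 RNAPII summit of each Adjacent list falls within the bar, 143 and 176 bp from the center, and the other summits of both groups lie 412 to 1031 bp away, while the H3K27ac summits at CISH-B lie near its higher end.

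The order of the 6 regions was not the same in the 3 readouts. By HA level FHL2-B was lowest, although by HA fold it had 9.43 and MMP17-A was lowest (5.38). By H3K27ac FHL2-B had the lowest level and the lowest fold (2.58), and by RNAPII it had the largest fold but not the highest level. CISH-B had the largest H3K27ac fold (8.18) and an RNAPII fold of 1.51, whereas MMP17-A had an H3K27ac fold of 4.53 and the smallest RNAPII fold, 1.35. The H3K27ac folds of MMP17-B, CISH-A and FHL2-A were 6.61, 4.18 and 3.60, and their RNAPII folds 2.03, 2.75 and 2.44. The differences between regions were not tested. In medians over the 6 regions, H3K27ac signal was 0.216 in Adjacent and 0.0504 in *IL1RN* libraries and RNAPII signal 0.359 and 0.114. The Adjacent median of H3K27ac remained below that of the 12 ERBSs in the same cells (0.391) and of the promoters of the 4 target genes (0.940).

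The fusion with the catalytic core of the acetyltransferase p300, dCas9-p300(core), had been targeted to the same 6 regions, with 2 Adjacent and 2 *IL1RN* libraries per antibody. Its H3K27ac libraries read 1.25 and 1.60 at MMP17-B against 0.166 and 0.135, a fold of 9.44, beside 6.61 with VP16(10x). In the main fit MMP17-B was the only one of the 23 regions called for H3K27ac with p300(core) (log2 change 3.20 ± 0.80 SE, limma adjusted p 0.0243). At MMP17-A the p300(core) libraries read 0.208 and 0.135 against 0.0971 and 0.573, a fold of 0.512 with overlapping groups, beside 4.53 with VP16(10x). Folds at CISH-A, CISH-B, FHL2-A and FHL2-B were 0.581, 2.97, 0.622 and 1.06 with p300(core). At CISH-A the Adjacent libraries read 0.106 and 0.117 against 0.0485 and 0.337, and at FHL2-A 0.0852 and 0.163 against 0.0277 and 0.371. There, at MMP17-A and at FHL2-B, both Adjacent values lay above *IL1RN* replicate 1 and below *IL1RN* replicate 2. The latter list held 4088 peaks, with no number in their names. The other p300(core) lists compared held 16457 to 24280 peaks and carry 15977. Limma's test of the difference between the fusions called 0 of 6 regions for H3K27ac and 0 of 6 for RNAPII (0% of the 23 in each), with 1 and 0 at an unadjusted p under 0.05. The 1 was MMP17-A, where the VP16(10x) log2 change exceeded that of p300(core) by 2.75 ± 1.24 (SE, 95% interval 0.12 to 5.38, limma adjusted p 0.405).

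For RNAPII at FHL2-B the p300(core) libraries read 0.101 and 0.0662 against 0.137 and 0.0197, a fold of 1.07, and the log2 changes of the fusions differed by 1.79 ± 1.29 (95% interval -0.95 to 4.53, limma adjusted p 0.92). At CISH-A the p300(core) fold was 0.809, and the difference 1.50 ± 0.86 (-0.33 to 3.33, adjusted p 0.92). Neither interval excludes an equal change with both fusions. The Adjacent and *IL1RN* RNAPII libraries carry the number 15968 with VP16(10x) and 15977 with p300(core) in their peak names, so fusion and number cannot be told apart. In the peak lists of p300(core) Adjacent libraries, MMP17-B was the only adjacent region with an H3K27ac peak (fold enrichment 64.1 and 52.9), with summits 22 and 29 bp to the lower-coordinate side of the gRNA center, against 190 bp to the other side with VP16(10x).

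ERBSs near the targeted regions, which no gRNA of either pool addressed, had H3K27ac folds that overlapped those of the adjacent regions at CISH-1 and MMP17-3, above FHL2-B (2.58). The folds ran from 0.813 to 2.67 with a median of 1.73 over 12 sites, and those of the 9 ERBSs of *MMP17*, *CISH* and *FHL2* had a median of 1.95. CISH-1, CISH-2 and CISH-3 had folds of 2.67, 2.47 and 1.95, MMP17-1, MMP17-2 and MMP17-3 2.24, 1.43 and 2.63, and FHL2-1, FHL2-2 and FHL2-3 0.834, 1.02 and 1.11. HES2-1, HES2-2 and HES2-3, whose gene had no adjacent region in the pool, had 1.84, 1.62 and 0.813. The difference between these sets of sites was not tested. Both Adjacent libraries lay above both *IL1RN* libraries at 10 of 23 regions (43.5%), which were the 6 adjacent regions together with MMP17-1, MMP17-3, CISH-2 and HES2-1, and below them at 0. The folds differed between the control libraries: the median over the 12 ERBSs was 4.22 over *IL1RN* replicate 1 alone and 1.07 over *IL1RN* replicate 2 alone, beside 12.5 and 2.65 at the adjacent regions. Over *IL1RN* replicate 2 alone, MMP17-3, MMP17-1, CISH-2 and CISH-1 had folds of 1.91, 1.55, 1.51 and 1.39, and FHL2-1, FHL2-2 and FHL2-3 of 0.477, 0.592 and 0.650.

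RNAPII at the ERBSs showed no shift of this size. The folds of the 12 sites ran from 0.805 at FHL2-1 to 1.19 at CISH-1, with a median of 1.03, all below the lowest fold of an adjacent region, 1.35. Both Adjacent RNAPII libraries lay above both *IL1RN* libraries at 11 of 23 regions (47.8%), which included CISH-1, CISH-2, FHL2-3, HES2-2 and HES2-3 beside the 6 adjacent regions, and below both at 4 (17.4%), MMP17-1, CISH-3, FHL2-1 and the *IL1RN* promoter. FHL2-1, the ERBS nearest to FHL2-B at 13446 bp, was thus among the lower ones (fold 0.805), and FHL2-2, 3052 bp from FHL2-A, had a fold of 1.10.

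**Figure D4:**
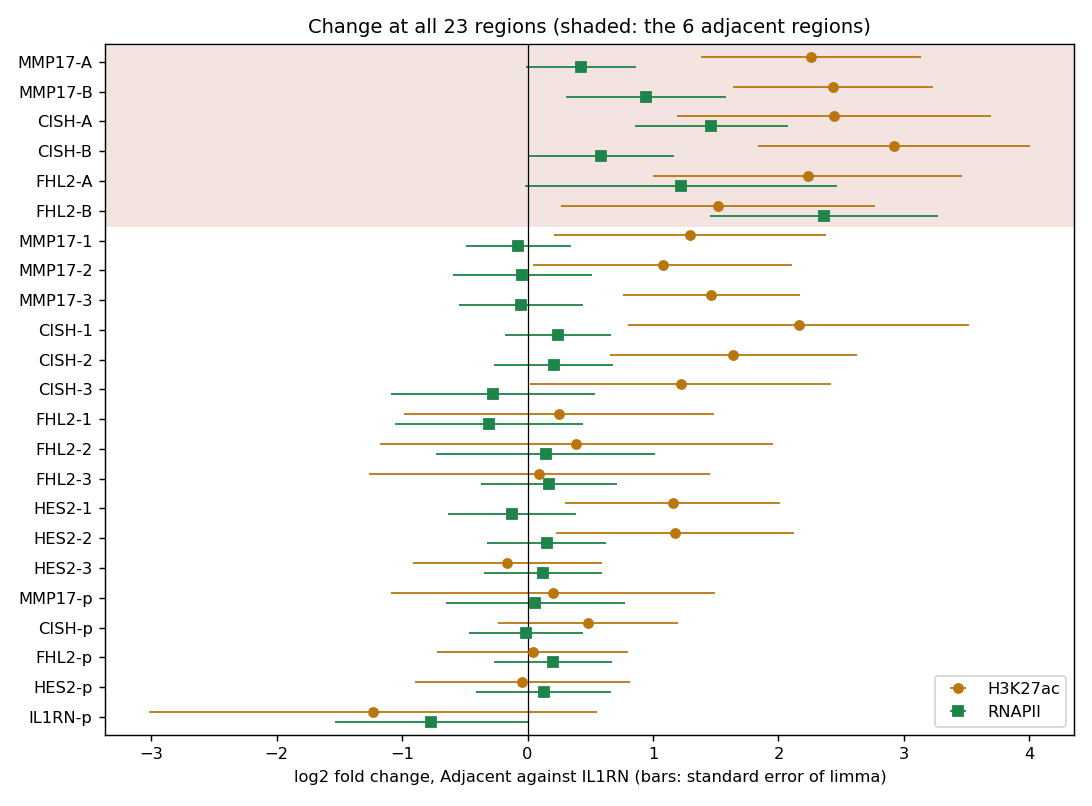
Log2 change of H3K27ac (orange circles) and RNAPII (green squares) in Adjacent over *IL1RN* libraries at all 23 tabulated regions, with limma standard errors as bars and the 6 adjacent regions shaded. The shaded regions hold the 5 highest H3K27ac and the 6 highest RNAPII estimates, with CISH-B highest for H3K27ac (2.92) and FHL2-B for RNAPII (2.36).

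At the promoters of the target genes the groups overlapped. H3K27ac at the *MMP17* promoter was 0.205 and 0.254 in Adjacent and 0.351 and 0.111 in *IL1RN* libraries, at *CISH* 1.12 and 1.19 against 1.32 and 0.512, and at *FHL2* 0.549 and 0.903 against 1.07 and 0.438. In all 3, and at *HES2* (2.39 and 2.66 against 3.28 and 2.05), both Adjacent values lay between the 2 *IL1RN* values. The H3K27ac folds were 0.993, 1.26, 0.964 and 0.947 for *MMP17*, *CISH*, *FHL2* and *HES2*, and the RNAPII folds 1.07, 0.996, 1.15 and 1.09. Over *IL1RN* replicate 2 alone the H3K27ac folds were 2.07, 2.25, 1.66 and 1.23, and over replicate 1 alone 0.653, 0.871, 0.680 and 0.769, so the direction at all 4 promoters turned with the control library. The RNAPII log2 change was -0.01 ± 0.46 (SE, 95% interval -0.98 to 0.96) at the *CISH* promoter and 0.21 ± 0.47 (-0.79 to 1.21) at the *FHL2* promoter. These intervals are unadjusted and are not detection limits. With 2 libraries per group and adjustment over 23 regions, even the larger change of 2.36 at FHL2-B was not called (limma adjusted p 0.332). RNAPII at CISH-A and FHL2-B, in the same cells, lay above both *IL1RN* libraries. The same held at 11 of the 23 regions (47.8%), among them 5 ERBSs that neither pool targets.

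The *IL1RN* promoter, the site targeted in the control cells, checks the labels. H3K27ac there was 0.408 and 4.00 in the *IL1RN* libraries and 2.57 and 0.112 in Adjacent replicates 1 and 2, while Pools 1 to 3 reached at most 0.172. Adjacent replicate 1, which carried *IL1RN* gRNAs, was the higher of the Adjacent libraries, and both it (fold enrichment 29.1) and *IL1RN* replicate 2 (32.0) had an H3K27ac peak there. RNAPII at the *IL1RN* promoter was 0.263 and 0.306 in the *IL1RN* libraries and 0.221 and 0.123 in the Adjacent libraries. The library labelled H3K27ac *IL1RN* replicate 1 was thus above the VP16 libraries without *IL1RN* gRNAs at this promoter, but far below its replicate, and p300(core) libraries without *IL1RN* gRNAs reached 0.540.

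Of 12 protein-coding genes that start within 100 kb of an adjacent region, 5 had an H3K27ac promoter peak in all 4 lists and 9 an RNAPII promoter peak. The H3K27ac enrichment of both Adjacent lists exceeded both *IL1RN* lists at 1 of 5, *C2orf49* (26.6 and 40.3 against 9.91 and 19.5), which encodes ashwin, a protein of the tRNA ligase complex, where 9.49% of 7978 coding genes did so, and was below both at 0 of 5, where 1% did so. The ratios of the mean enrichments were 1.20 for *SFSWAP*, 0.543 for *TGFBRAP1*, 1.68 for *HEMK1* and 0.779 for *MAPKAPK3*, with a median of 1.20 over the 5 against 0.714 over all coding genes measured. RNAPII enrichment exceeded both *IL1RN* lists at 2 of 9, *SFSWAP* (ratio 1.25) and *TGFBRAP1* (1.36), where 13.9% of 11098 genes did so. It was below both at 3 of 9, the calcium channel subunit gene *CACNA2D2* (0.876), *HEMK1* (0.707) and the kinase gene *MAPKAPK3* (0.776), where 24.1% did so. *CISH* and *FHL2* had RNAPII ratios of 1.09 and 1.14, and *MMP17* had no promoter peak in any of the 8 lists. *HEMK1*, in whose exon 11 CISH-B is centered, read 7.07 and 6.95 against 12.6 and 7.19 for RNAPII, so that 1 *IL1RN* list set most of its ratio. The median over the 9 genes, 1.09, lay beside 0.974 over all genes.

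Across the genome, the 4 H3K27ac lists merged (at 1 bp of overlap or more) into 32240 peaks, of which 2471 were in both Adjacent and neither *IL1RN* list (7.66%), 38 were in both *IL1RN* and neither Adjacent list (0.118%), and 9622 were in all 4. The Adjacent-only peaks were narrower than those in all 4 lists (median 586 against 1672.5 bp), had lower fold enrichment (median 9.32 against 28.7), and were less often at promoters (34.4% against 79.3%). Every pair of single libraries held more Adjacent-only than *IL1RN*-only H3K27ac peaks. Against the short list of *IL1RN* replicate 1, Adjacent replicates 1 and 2 held 11578 and 11843 peaks absent from it and lacked 2826 and 1192 of its peaks, and against *IL1RN* replicate 2 the numbers were 9257 and 12477, and 3901 and 5666. When all 4 lists were reduced to the same number of strongest peaks, 940 Adjacent-only and 153 *IL1RN*-only peaks were found. Of the 2471 Adjacent-only peaks, 36.3% were in none of the 6 lists of Pools 1 to 3, the others were in at least 1 of these lists from cells that lacked adjacent gRNAs, and 881 were in no list of the other VP16(10x) or p300(core) libraries without these gRNAs. Some of these lists were short, with 5322 peaks in VP16 Pool 3 replicate 1 and 1805 in p300(core) Pool 3 replicate 2. Absence from them can therefore reflect low depth.

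The Adjacent-only H3K27ac peaks with the highest mean enrichment lay at promoters in 6 of 8 cases and on the X chromosome in 5 of 8. They were nearest to *WDR45*, an autophagy gene (34.9), *THOC2*, a gene of mRNA export (29.4), *ZNF587* (27.6), *ARMCX3* (27.4), *GPKOW* (27.2), *ZNF703* (26.3), *RRAGB* and *ZNF337*. All 8 were also in at least 2 of the 6 pool lists, and the peak at *WDR45* was in all 6. The X chromosome held 82 of the 2471 (3.32%) and 2.15% of the peaks in all 4 lists. A site that matched an adjacent gRNA with at most 2 mismatches over the 19 bases next to the PAM lay in 1 of 2471 Adjacent-only peaks, at CISH-B (chr3:50631775-50632337), which was absent from every list without these gRNAs, and in 0 of the 38 *IL1RN*-only peaks. Among the tabulated ERBSs, HES2-2 overlapped an Adjacent-only peak (chr1:6496647-6497859, fold enrichment 14.1 and 28.7), which was also in 3 of 6 pool lists. Of the 2471, 76 overlapped a peak that both HA Adjacent lists and not the HA *IL1RN* list held, against 307 of the 9622 peaks present in all 4 lists.

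For RNAPII the union held 42010 peaks, and the balance was the other way, with 782 in both Adjacent and neither *IL1RN* list (1.86%) and 1234 in both *IL1RN* and neither Adjacent list (2.94%), beside 21555 in all 4. The 782 were narrow and weak: their median width was 260 bp against 625 bp in all 4 lists, their median enrichment 7.55 against 11.1, and 71.9% of them had a mean −log10 p under 20, with 10.0 the lowest in the lists. Only 51 of the 782 were absent from every other list without adjacent gRNAs. The 4 at CISH-A, CISH-B, FHL2-B and MMP17-A were all the Adjacent-only peaks that contained an adjacent gRNA match with up to 2 mismatches, each of them exact, and none of the 1234 *IL1RN*-only peaks did. Their mean enrichments were 4.99 at CISH-A, 7.50 at CISH-B and 8.86 at FHL2-B, so that the targeted peaks did not stand at the top of their class. Those at CISH-A, CISH-B and FHL2-B were absent from every list without these gRNAs, whereas the MMP17-A peak was in 1 such p300(core) list.

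The RNAPII peaks with the highest mean enrichment among the 782 were at or nearest *RGS6*, a regulator of G-protein signaling (15.9), *AGTPBP1* (14.3), the keratin-associated gene *KRTAP9-3* (14.0), *TALDO1* of the pentose phosphate pathway (13.1), *TLE5* (13.0), *MYC* (12.8), *LMX1B* (12.3) and *RPL36A* (12.3), and none was within 100 kb of an adjacent region. HA peaks specific to the Adjacent libraries overlapped 7 of the 782, which were the 4 at adjacent regions and 3 others, nearest to *OSBPL7*, *CEBPB* and *KLF10*, against 7 of the 1234 *IL1RN*-only peaks and 507 of the 21555 in all 4 lists. Overlap between the antibodies was small, since 25 of the 2471 H3K27ac peaks (1.01%) overlapped 26 of the 782 RNAPII peaks (3.32%). These included CISH-B, the only adjacent region among them, and promoters of *NFE2*, *SRGAP3*, *BRSK1* and *RHBDF2*.

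**Figure D5:**
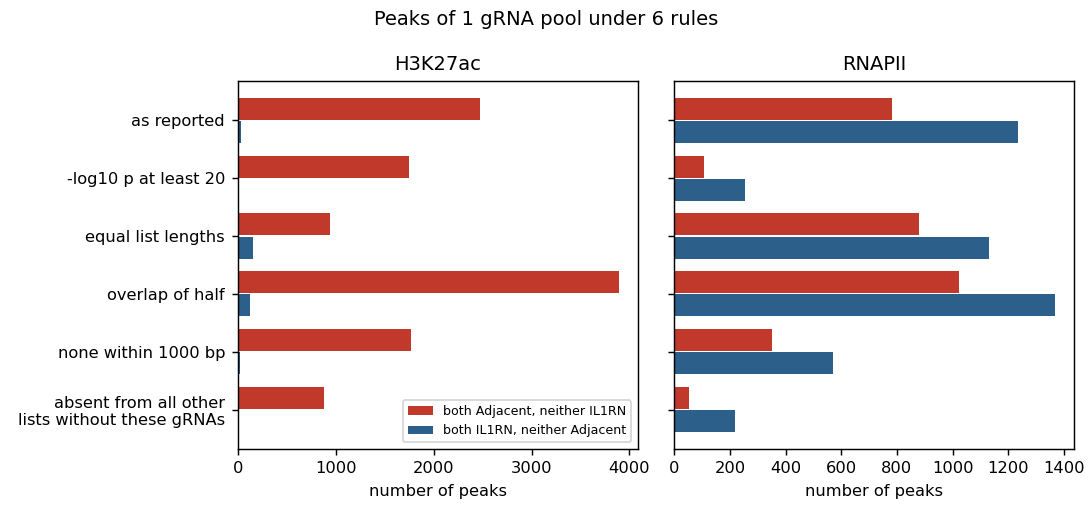
Number of union peaks in both Adjacent and neither *IL1RN* list (red) and in both *IL1RN* and neither Adjacent list (blue), on linear axes from 0, for H3K27ac and RNAPII under 6 ways of counting. The main count is 2471 against 38 for H3K27ac and 782 against 1234 for RNAPII, and with lists of equal length the H3K27ac counts are 940 and 153.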

How the data were processed

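ChIP-seq for H3K27ac, RNAPII and HA had been performed in Ishikawa cells, and the authors aligned single-end reads to hg19 with Bowtie (1.1.2, per the submitters' processing notes), removed duplicates with SAMtools and counted reads per region with bedtools. The deposited signal values are these counts divided by total read depth and then by the average depth within all shared peaks of the antibody (HA values were instead scaled to the mean signal of control promoters). They are therefore relative levels, and a change shared by all peaks would be removed. Peaks were called by the authors per library with MACS2 (2.1.0.20140616), and the deposited lists give a fold enrichment (a ratio over background) and a −log10 p for each peak, at 10.0 or higher.

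Signal was tested as log2(signal + the smallest value above 0, 0.00415 for H3K27ac and 0.00395 for RNAPII) with limma (3.58.1, R 4.3.3), with a mean per fusion and pool over the 20 libraries of an antibody, moderated variance and Benjamini-Hochberg adjustment over 23 regions at 0.05. Exact two-sided permutation tests were made with SciPy (1.17.1). Reads per region were recovered as whole multiples of the step of each library (tolerance 0.02 reads). They are lower limits, and their counting error is not the replicate error. The fold of a region is the ratio of group means. Peaks were merged at 1 bp of overlap, and an adjacent gRNA was searched on both strands over its 19 bases next to an NGG. Genes and exons are those of the GENCODE annotation lifted to hg19, and a promoter is 1000 bp on each side of a start. The fit was tested on simulated data with a single change larger than any main estimate given here. That test does not show whether changes of the observed size would be called. The members, gene lists and rules (all 6 adjacent regions, all 12 ERBSs and 5 promoters, genes within 100 kb, the 8 Adjacent-only peaks of highest mean enrichment per antibody, and those at tabulated regions, gRNA matches or HA peaks) were chosen with earlier results of these data known. Libraries with the same replicate number did not deviate together (correlations of deviations -0.62 for H3K27ac and -0.255 for RNAPII), and replicates were not paired. For H3K27ac an equal replicate number joins an Adjacent and an *IL1RN* library that differ in the number in their peak names. The negative correlation therefore means that libraries alike in the peak-name number deviated in the same direction. The main fit leaves this out, and the block on that number takes it in. All 47 value columns of the table were mapped to samples or groups. RNA measurements were not analysed here.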

Additional observations from a re-analysis of the deposited data

Results flagged for a closer look

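At MMP17-1, an ERBS, every RNAPII library of the Adjacent pool lay below those of the *IL1RN* pool with VP16(10x) (fold 0.951) and above them with p300(core) (fold 1.44), and the log2 changes differed by -0.68 (limma p 0.27, adjusted p 0.92). At CISH-1 the directions were opposite, with folds of 1.19 with VP16(10x) and 0.613 with p300(core) and a difference of 0.90 (limma p 0.151, adjusted p 0.92). Neither difference passed the test, and the Adjacent and *IL1RN* RNAPII libraries of the 2 fusions carry different numbers in their peak names. In the HA libraries, which the comparisons of H3K27ac and RNAPII do not use, Adjacent replicate 2 had an HA peak at 12 of the 16 regions that neither pool targets, against 4 in Adjacent replicate 1 and 7 in the *IL1RN* library.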

How the results depend on the processing

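All 6 adjacent regions kept a higher mean in Adjacent libraries in most settings, and the sign of the log2 change turned in 3 of 96 alternative values for H3K27ac and 2 of 95 for RNAPII, whereas it turned in 45 and 31 of 272 at the other regions. For H3K27ac (0 calls among 6 and 17 regions, median log2 change 2.34) the batch block, the number in the peak names, gave 5 and 3 calls, and adding Pools 1 to 3 to the control gave 1 (MMP17-B, limma adjusted p 0.0149). The median was 1.12 with a pseudocount of 0.1, 0.049 when each library was divided by its own median over untargeted regions, and 1.28 to 3.28 leaving out 1 library, with 0 calls. For RNAPII (0 and 0 calls, median 1.09) there were 2 calls with a pseudocount of 0.1 (CISH-A, FHL2-B, median 0.467), 1 in VP16(10x) libraries alone (FHL2-B, adjusted p 0.00366) and 5 and 1 in the 4 compared libraries alone. The last fit takes its error only from the 2 replicate pairs, whose reads over untargeted regions agreed within sampling noise. Division by the own median gave 0.448, and leaving out 1 library 0.955 to 1.21 with 0 calls. The replicate number as a block (replicate block, where the labels share only a number) gave 0 and 0 calls and medians of 2.34 and 1.09, and so did the crossed pairing, added after seeing the data. The crossed pairing swapped only the VP16(10x) *IL1RN* replicate numbers. Its blocks still mixed H3K27ac libraries with and without a peak-name number, so it does not test the pairing by that number. With the 16-region division, also added, the exact permutation test gave p = 0.0444 at 5 adjacent regions for H3K27ac and 2 for RNAPII, in place of 6 and 3. These divisions shifted the median H3K27ac log2 change of all 23 regions (1.18) by -0.75 and, with the own median, by -2.37, but the adjacent regions stayed above the others by 1.86 to 1.96 (1.00 to 1.03 for RNAPII). Difference calls between fusions were 0 in all settings.

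Adjacent-only H3K27ac peaks (2471) numbered 940 with lists of equal length, 3889 when an overlap of 0.5 of the shorter peak was required, 881 when absent from every list without these gRNAs, and 4751 to 7749 leaving out 1 library, and *IL1RN*-only peaks (38) 153, 124, 0 and 189 to 3132, with 18 at −log10 p of 20 or more and 22 with no peak within 1000 bp. Adjacent-only RNAPII peaks (782) numbered 107 at −log10 p of 20 or more, 349 with no peak within 1000 bp, 51 when absent from every such list, and 1401 to 4316 leaving out 1 library, and *IL1RN*-only peaks (1234) 255, 570, 216 and 2137 to 4814. The cause of these changes was not tested. A count model was not run, because only 23 regions have values. Limits are 2 libraries per group, few reads in H3K27ac *IL1RN* replicate 1 (2 to 6 in the 6 adjacent regions), and pools that target 6 regions at once.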
